A study of Mus musculus with 16 samples.

Results

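The genes described here are 9 members of the Nodal and BMP signalling pathways, Nodal, Lefty1, Lefty2, Tdgf1, Smad7, Bmp4, Id1, Id2 and Id3, followed in newly made RNA of mouse embryonic stem cells with and without Mettl14. They were taken by their gene identifiers, 9 of the 54446 mouse identifiers counted. All 9 passed the filter on low counts in every comparison. Their abundance, averaged over the libraries outside 30 min, lay between the 70.6th percentile (Lefty1) and the 99.0th percentile (Tdgf1) of the 27488 identifiers tested.

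Nodal is a secreted ligand of the TGF-beta family. It acts through activin receptors and the co-receptor Cripto, encoded by Tdgf1, to activate SMAD2 and SMAD3, and it induces its own feedback inhibitors Lefty1 and Lefty2. BMP4, a ligand of the same family, acts through SMAD1 and SMAD5 and induces the Id genes, whose products block basic helix-loop-helix transcription factors, and SMAD7 restrains both branches from inside the cell. In cultured mouse embryonic stem cells, BMP signalling through the Id genes is known to help hold back differentiation, and Nodal, Lefty1, Lefty2 and Tdgf1 are active in the undifferentiated state.

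The cells, of strain C57BL/6, carried either the Control or the Mettl14 CKO (conditional knockout) genotype. METTL14 pairs with METTL3 to form the writer of N6-methyladenosine in messenger RNA. All cells grew in medium with 15% FBS (serum), LIF at 1000 U/ml, the GSK3 inhibitor CHIR99021 at 3 µM and the MEK inhibitor PD0325901 at 1 µM. At 48 h after seeding they received 0.5 mM 5-ethynyl uridine (EU), a uridine analogue built into RNA during transcription, for 10, 20, 30 or 60 min, and labelled RNA was captured and sequenced. The 8 groups held 2 libraries each, which makes 16. The labels do not say how Mettl14 was deleted or how many clones were used, and they describe the RNA both as total and as nascent polyA. They name 8 plates for the 16 libraries, so replicates may share a culture, and p-values then measure only technical spread. The level of Mettl14, markers of stem cells and of other cell types, and further genes of both pathways were not analysed here, because the files pair no identifier with a symbol.

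The 14 libraries outside the CKO 30 min group held 11902184 to 28502750 mouse counts and detected 21173 to 26857 identifiers. The CKO 30 min libraries stood apart, with 5188643 and 5109162 mouse counts and 30583 and 31826 identifiers detected. Results that use them are therefore given with and without the 30 min libraries where both are possible, and whether their make-up sets the values below was not tested. The replicates of each group differed beyond counting noise (chi-square per degree of freedom 3.51 to 21.0). Levels are in TMM-scaled CPM, library-scaled counts adjusted further so that the bulk of genes matches between libraries, and they describe a share of the captured RNA. In such bulk samples, fewer expressing cells and less RNA per cell cannot be told apart. A change was called when the adjusted p of edgeR's quasi-likelihood test, corrected over all identifiers tested by the Benjamini-Hochberg method, was under 0.05. With 2 libraries per group, the genotypes can lie apart without overlap and without a call. The share of all identifiers that lie apart in this way was not counted.

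Nodal (ENSMUSG00000037171), the ligand, spans chr10:61417972-61425338 (GRCm38.p6). Its level was 43.2 and 42.0 CPM in the Control libraries at 10 min, 51.4 and 52.9 at 20 min, 61.6 and 57.6 at 30 min, and 73.3 and 70.8 at 60 min. In CKO it was 49.5 and 51.6 CPM at 10 min, 55.9 and 57.2 at 20 min, 39.3 and 37.9 at 30 min, and 101 and 89.4 at 60 min. CKO libraries lay above Control at 10, 20 and 60 min and below at 30 min, without overlap. None of the differences at 10, 20 and 60 min was called, the largest being 1.32-fold at 60 min (log2 fold change 0.40, SE 0.12, edgeR adjusted p = 0.0955).

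Tdgf1 (ENSMUSG00000032494) encodes Cripto, which Nodal needs to engage its receptors. The gene spans chr9:110939608-110946158. Control libraries held 464 and 503 CPM at 10 min, 485 and 477 at 20 min, 414 and 426 at 30 min, and 502 and 474 at 60 min. CKO libraries held 478 and 531 CPM at 10 min, 465 and 453 at 20 min, 334 and 322 at 30 min, and 531 and 501 at 60 min. Outside 30 min this was the member with the smallest genotype differences, with log2 fold changes between −0.07 (SE 0.08) and 0.08 (SE 0.08). The genotypes overlapped at 10 and 60 min, and at 20 min both CKO libraries lay below both Control libraries, without a call.

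Lefty1 (ENSMUSG00000038793) and Lefty2 (ENSMUSG00000066652) are secreted inhibitors that bind Nodal and Cripto. They are closely related neighbours on chromosome 1, chr1:180935022-180938401 and chr1:180893108-180899107, so reads shared between them may have been split or dropped in counting, and Lefty1 overlaps the gene model Gm39715. Lefty1 had the fewest counts of the 9 members, 38 to 729 per library, against 151 to 2092 for Lefty2. For Lefty1, Control libraries held 7.85 and 11.4 CPM at 10 min, 7.71 and 8.16 at 20 min, 12.2 and 13.1 at 30 min, and 13.4 and 15.3 at 60 min. The CKO values were 23.1 and 18.0 CPM at 10 min, 15.7 and 14.2 at 20 min, 6.08 and 12.2 at 30 min, and 27.4 and 30.1 at 60 min. Every CKO library at 10, 20 and 60 min was above both Control libraries of its EU time. For Lefty2, CKO lay above Control without overlap at 10 and 20 min. Its Control libraries held 65.0 and 67.4 CPM at 10 min, 54.2 and 44.7 at 20 min, 48.9 and 60.2 at 30 min, and 66.0 and 74.4 at 60 min. In CKO, Lefty2 was at 71.0 and 68.6 CPM at 10 min, 65.0 and 56.7 at 20 min, 28.3 and 24.2 at 30 min, and 64.2 and 86.4 at 60 min, with overlap at 60 min.

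Smad7 (ENSMUSG00000025880), which overlaps the gene model Gm41776, encodes an inhibitory Smad that blocks receptor signalling of both branches. Its Control libraries held 138 and 133 CPM at 10 min, 191 and 186 at 20 min, 286 and 286 at 30 min, and 333 and 321 at 60 min. The CKO libraries held 104 and 86.0 CPM at 10 min, 208 and 205 at 20 min, 116 and 139 at 30 min, and 314 and 333 at 60 min. Smad7 was the member whose CKO libraries were below Control at 10 min. They were slightly above Control at 20 min and overlapped with it at 60 min.

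Bmp4 (ENSMUSG00000021835), the BMP ligand, spans chr14:46383525-46390669 and overlaps the RefSeq gene models Gm15217 and Gm15222, so its counts may include theirs. In Control it was nearly flat, at 46.9 and 44.9 CPM at 10 min, 40.9 and 41.8 at 20 min, 39.5 and 41.2 at 30 min, and 45.6 and 41.5 at 60 min. CKO libraries held 45.5 and 54.6 CPM at 10 min, 76.9 and 64.7 at 20 min, 29.4 and 29.0 at 30 min, and 65.9 and 66.1 at 60 min. The genotypes overlapped at 10 min, and CKO lay above Control at 20 and 60 min.

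Id1 (ENSMUSG00000042745), a direct target of BMP signalling, spans chr2:152736251-152737410. Control libraries held 69.0 and 67.1 CPM at 10 min, 89.2 and 97.1 at 20 min, 129 and 139.6 at 30 min, and 132 and 136 at 60 min. CKO libraries held 166 and 178 CPM at 10 min, 126 and 134 at 20 min, 122 and 113 at 30 min, and 209.5 and 189 at 60 min. Thus the Control level climbed over the first 30 min of labelling, whereas the CKO level at 10 min was already above every Control library of any EU time.

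Id2 (ENSMUSG00000020644) spans chr12:25093799-25096092 and Id3 (ENSMUSG00000007872) chr4:136143822-136145392, and both encode inhibitors of the same kind as Id1. Id2 was at 78.5 and 74.5 CPM in Control at 10 min, 79.0 and 83.1 at 20 min, 66.9 and 71.3 at 30 min, and 112 and 113 at 60 min. In CKO it was at 129.6 and 137 CPM at 10 min, 102 and 101 at 20 min, 53.7 and 43.2 at 30 min, and 112 and 143 at 60 min. Id3 was at 80.2 and 78.5 CPM in Control at 10 min, 114 and 107 at 20 min, 140.5 and 131 at 30 min, and 128 and 122 at 60 min. Its CKO libraries held 129 and 155 CPM at 10 min, 126 and 131 at 20 min, 95.5 and 117 at 30 min, and 211 and 176 at 60 min. All 3 Id genes lay above Control at 10 and 20 min without overlap, and at 60 min Id1 and Id3 still did, while Id2 overlapped. The test called all 3 at 10 min, of the 3 only Id1 at 20 min, and Id1 and Id3 at 60 min. At 20 min Id2 and Id3 thus lay apart without a call (edgeR adjusted p = 0.428 and 0.789). The share of all identifiers that lie apart was not counted.

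**Figure D1:**
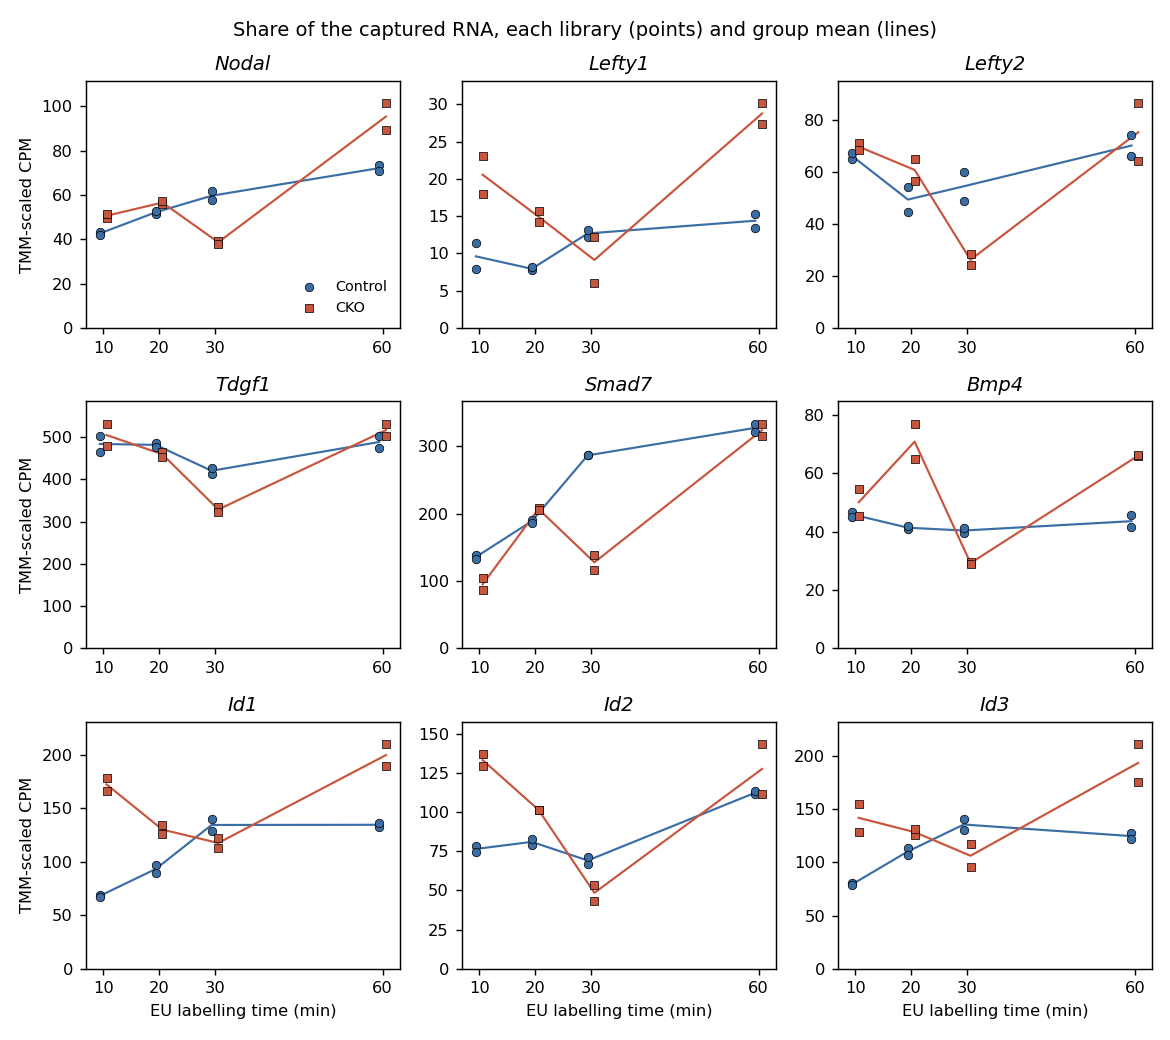
TMM-scaled CPM (vertical axes, from 0) of the 9 genes against EU labelling time in minutes, with 1 point per library, circles for Control and squares for CKO, and lines through the means of the 2 libraries. Id1, Id2, Id3 and Lefty1 start higher in CKO at 10 min, Smad7 starts lower, and with this scaling all 9 genes are below Control in CKO at 30 min (the fitted value of Id1 turns to 0.11 with library totals).

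Promoter sequence is shown for Id2, Id3 and Bmp4. These are the members with a window at hand that were called higher in CKO at any single EU time with all libraries. The window of Nodal is not shown. Nodal lay above Control in CKO at 10, 20 and 60 min, without a call at those EU times in that fit. Windows came from RefSeq (GRCm38.p6), which gave one for 5 of the 9 members (Nodal, Tdgf1, Bmp4, Id2, Id3), and each sequence below is the 250 bases before the gene start, 5′ to 3′ on the gene's strand. The windows are chr12:25096093-25096342 (minus strand) for Id2, chr4:136143572-136143821 (plus strand) for Id3 and chr14:46390670-46390919 (minus strand) for Bmp4. Capitals mark matches on either strand to GGCGCC, a GC-rich element bound by SMAD1 and SMAD5, to the GC box GGGCGG and to the E-box CANNTG, the site class of basic helix-loop-helix factors.
Id2: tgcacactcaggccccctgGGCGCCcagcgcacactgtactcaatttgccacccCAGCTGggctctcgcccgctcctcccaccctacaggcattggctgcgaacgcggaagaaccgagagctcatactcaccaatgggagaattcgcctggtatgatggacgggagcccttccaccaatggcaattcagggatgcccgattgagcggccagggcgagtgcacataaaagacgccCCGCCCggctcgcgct
Id3: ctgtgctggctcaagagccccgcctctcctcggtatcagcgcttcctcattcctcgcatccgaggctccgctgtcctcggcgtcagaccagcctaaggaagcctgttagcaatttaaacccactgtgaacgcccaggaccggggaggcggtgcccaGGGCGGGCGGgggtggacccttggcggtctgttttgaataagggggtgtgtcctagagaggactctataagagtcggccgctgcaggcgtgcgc
Bmp4: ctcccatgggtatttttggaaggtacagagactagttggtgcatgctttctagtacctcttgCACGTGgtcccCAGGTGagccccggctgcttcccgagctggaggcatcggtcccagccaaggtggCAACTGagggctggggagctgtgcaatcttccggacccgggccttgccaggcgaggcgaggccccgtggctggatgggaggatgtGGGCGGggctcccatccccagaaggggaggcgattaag

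The window of Id2 held 1 match to GGCGCC, and those of Id3, Bmp4, Nodal and Tdgf1 held 0. Of the 32851 windows of the same length outside chromosome 18, 9.59% held at least 1. GGGCGG had 2 matches, with overlapping letters, in the Id3 window, 1 in those of Id2, Bmp4 and Tdgf1 and 0 in that of Nodal (32.7% of the 32851 windows). CANNTG had 3 matches in the Bmp4 window, 1 each in those of Id2 and Tdgf1 and 0 in those of Id3 and Nodal (66.2% of the 32851 windows). TGTNNATT, a form of the site of FOXH1, the partner of SMAD2 in Nodal signalling, had 2 matches in the Tdgf1 window and 0 in the other 4 (10.9% of the 32851 windows). These matches describe letters in the windows and say nothing on binding.

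After 10 min of EU, the shortest labelling, Id1, Id2, Id3 and Lefty1 took a larger share of the captured RNA in CKO than in Control, and Smad7 took a smaller one. Id1 was 2.53-fold higher (log2 fold change 1.34, SE 0.10, edgeR adjusted p = 1.14e-09), the largest difference among the 9. Id3 was 1.79-fold higher (0.84, SE 0.12, edgeR adjusted p = 1.52e-05) and Id2 1.74-fold higher (0.80, SE 0.12, edgeR adjusted p = 4.95e-05). These 3 targets of BMP signalling rose while Bmp4 itself was at 1.09-fold (0.13, SE 0.15, edgeR adjusted p = 0.676). Lefty1 rose 2.14-fold (1.09, SE 0.29, edgeR adjusted p = 0.0133), and its neighbour Lefty2 was at 1.05-fold (0.08, SE 0.16, edgeR adjusted p = 0.9). Smad7 fell to 0.701-fold (−0.51, SE 0.10, edgeR adjusted p = 0.000755).

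In all, 5 of 9 members were called at 10 min, 4 higher and 1 lower, where 11.8% of all identifiers were called, 6.45% higher and 5.36% lower. Among the 7787 identifiers whose abundance lay within the range of the members, a comparison chosen after the values were seen, 29.2% were called, 16.3% higher. The median log2 fold change was 0.25 over the members and 0.01 over those 7787. Leaving out the 30 min libraries kept all 5 calls (22.8% of all identifiers called), with log2 fold changes of 1.30 for Id1, 0.76 for Id2, 0.80 for Id3, 1.06 for Lefty1 and −0.55 for Smad7. Without the first Control 10 min library Lefty1 was at 0.83 (edgeR adjusted p = 0.168), and without the first CKO 10 min library at 0.88 (edgeR adjusted p = 0.111).

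At 20 min Bmp4 and Id1 were higher in CKO. Bmp4 was 1.71-fold higher in CKO (log2 fold change 0.78, SE 0.14, edgeR adjusted p = 0.00329) and Id1 1.39-fold higher (0.48, SE 0.10, edgeR adjusted p = 0.0118). These were the 2 of 9 members called, both higher, against 0.96% of all identifiers (0.706% higher) and 2.8% of those in the members' range of abundance. Lefty1 was at 1.88-fold (0.91, SE 0.29, edgeR adjusted p = 0.22), and the remaining 6 had log2 fold changes of −0.07 to 0.32. Lefty1 was called without either CKO 30 min library (edgeR adjusted p = 0.0166 and 0.0209). Without all 30 min libraries the same 2 members were called (1.9% of all identifiers), and Lefty1 had an edgeR adjusted p of 0.0532. For Id1 the call was lost without any one of the 4 libraries of this comparison (edgeR adjusted p = 0.107 to 0.589). Bmp4 lost it without either Control 20 min library (edgeR adjusted p = 0.0994 and 0.0705) or the first CKO 20 min library (edgeR adjusted p = 0.266).

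At 30 min all 9 members were lower in CKO with TMM scaling (Id1 turned to 0.08 with median-of-ratios factors), 7 of them by the test. Smad7 fell to 0.446-fold (log2 fold change −1.17, SE 0.10, edgeR adjusted p = 1.49e-09), Lefty2 to 0.481-fold (−1.06, SE 0.17, edgeR adjusted p = 2.16e-05) and Nodal to 0.649-fold (−0.62, SE 0.13, edgeR adjusted p = 0.000678). Id2, Bmp4, Tdgf1 and Id3 fell by 0.51, 0.47, 0.35 and 0.35 on the log2 scale, and the values of Lefty1 and Id1 were −0.48 and −0.19. Lefty1 was also called without the second CKO 30 min library (edgeR adjusted p = 0.0208). Of all identifiers 48.5% were called at this EU time, 19.1% lower, with a median log2 fold change of 0.61 (0.88 with median-of-ratios size factors and 0.91 with library totals). However, of those in the members' range of abundance 60.7% were called, 56% lower, with a median log2 fold change of −0.49, near the members' median of −0.48. Smad7, Lefty2 and Nodal kept their calls with median-of-ratios size factors, with ERCC scaling and with DESeq2, while Nodal lost its call with library totals (edgeR adjusted p = 0.0588). Id2, Id3, Bmp4 and Tdgf1 lost theirs under all 4 of these, and Id1 changed sign with median-of-ratios factors (0.08), library totals (0.11) and DESeq2 (0.08). Those 4 also lost their calls without the second Control 30 min library (edgeR adjusted p = 0.0673, 0.0889, 0.177 and 0.0545 for Id2, Id3, Bmp4 and Tdgf1), and Id2 did without the second CKO 30 min library (edgeR adjusted p = 0.0842). Leaving out any one of 8 libraries ended the call of Id3 and any one of 9 that of Bmp4 (edgeR adjusted p up to 0.227 and 0.177). The comparison rests wholly on the libraries that stood apart.

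After 60 min of EU, Id1, Id3 and Bmp4 were higher in CKO. Id3 was 1.55-fold higher (log2 fold change 0.63, SE 0.11, edgeR adjusted p = 0.00168), Bmp4 1.52-fold (0.60, SE 0.14, edgeR adjusted p = 0.0179) and Id1 1.48-fold (0.57, SE 0.10, edgeR adjusted p = 0.00115). Lefty1 was at 2.00-fold (1.00, SE 0.28, edgeR adjusted p = 0.0569), and the values of Smad7, Tdgf1 and Lefty2 were −0.02, 0.08 and 0.10. The 3 called members, all higher, compare with 2.63% of all identifiers (1.79% higher) and 7.72% of those in the members' range of abundance. Lefty1 and Nodal were called as well in the fit that leaves out the 30 min libraries (edgeR adjusted p = 0.0132 and 0.0403), which gave 5 of 9 against 4.93% of all identifiers. Lefty1 was called, too, without either CKO 30 min library, either CKO 10 min library or the second Control 10 min library (edgeR adjusted p = 0.00281 to 0.0474). Id1 lost its call without either Control 60 min library (edgeR adjusted p = 0.123 and 0.0663) or the first CKO 60 min library (edgeR adjusted p = 0.0704). Id3 lost it without the second Control 60 min library (edgeR adjusted p = 0.0806) or the first CKO 60 min library (edgeR adjusted p = 0.101). For Bmp4 this happened without any one library of the Control 20, 30 and 60 min or the CKO 20 and 60 min groups, with an edgeR adjusted p of up to 0.597.

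**Figure D2:**
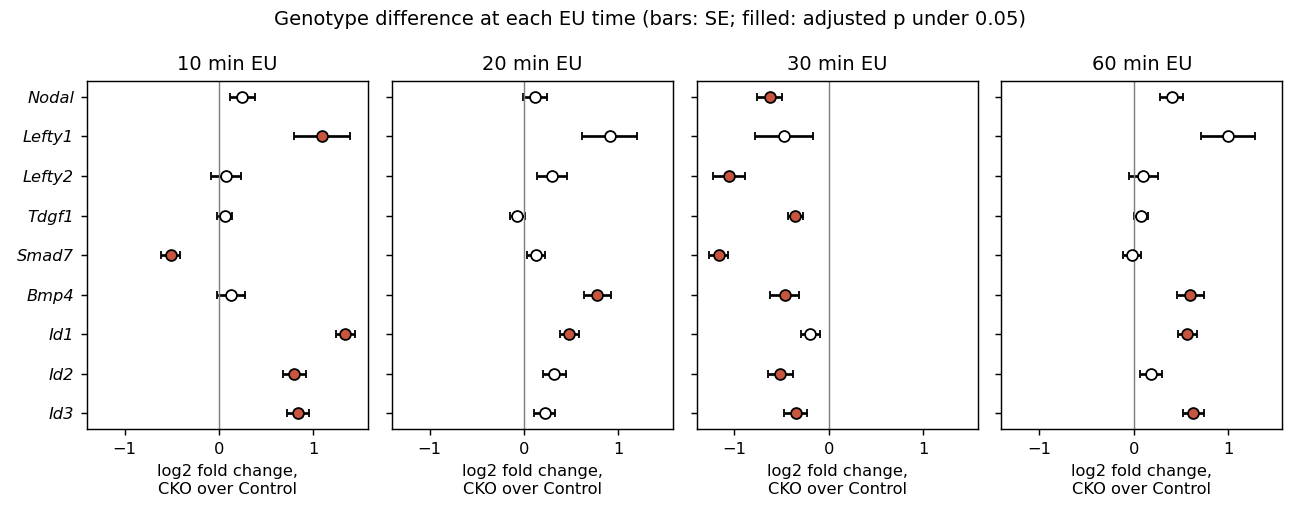
Log2 fold change of CKO over Control (horizontal axis, bars are SE) for each gene, with 1 panel per EU time and 2 libraries per group; filled points had an edgeR adjusted p under 0.05. Id1 was called at 10, 20 and 60 min and Id3 at 10 and 60 min, all higher, Id3 was called lower at 30 min, and at 30 min every point lies left of 0 with TMM scaling (Id1 lies right of 0 with median-of-ratios factors, 0.08).

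Averaged over all EU times, Id1 and Lefty1 were higher in CKO, although with TMM scaling both were lower at 30 min (−0.19 and −0.48, not called). This fit takes the same genotype difference at every EU time, so variation between EU times enters its SE and p-values. Id1 was 1.46-fold higher (log2 fold change 0.55, SE 0.14, edgeR adjusted p = 0.0187) and Lefty1 1.58-fold (0.66, SE 0.20, edgeR adjusted p = 0.0391). That made 2 of 9 members called, both higher, against 11.5% of all identifiers, 6.77% higher and 4.7% lower, and 19.7% of those in the members' range of abundance (5.51% higher). Smad7 was at −0.38 (SE 0.14, edgeR adjusted p = 0.0664) and Id3 at 0.34 (SE 0.13, edgeR adjusted p = 0.0834), and the remaining 5 lay between −0.12 and 0.27. Id1 lost its call without the second Control 10 min library (edgeR adjusted p = 0.0538), and Lefty1 lost it without any one of the 12 libraries outside 30 min (edgeR adjusted p = 0.0526 to 0.0775). Id3 was called without either CKO 30 min library (edgeR adjusted p = 0.0152 and 0.0468). Smad7 was called lower without either Control 20 min or CKO 20 min library, or the second library of the Control or CKO 60 min group (edgeR adjusted p = 0.0372 to 0.0471).

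Without the 4 libraries of 30 min, 6 of 9 members were called, all higher. Of the 20204 identifiers tested 12.6% were called in either direction, 1324 higher and 1221 lower. The share in the members' range of abundance was not computed for this fit. The called members included Bmp4, Id1, Id2 and Id3, while Smad7, which restrains both branches, was not called. Lefty1 was 1.98-fold higher (log2 fold change 0.99, SE 0.13, edgeR adjusted p = 6.94e-05) and Id1 1.71-fold (0.78, SE 0.11, edgeR adjusted p = 7.05e-05). Id3 was 1.46-fold higher (0.55, SE 0.09, edgeR adjusted p = 0.000449), Bmp4 1.40-fold (0.49, SE 0.10, edgeR adjusted p = 0.00394), Id2 1.34-fold (0.42, SE 0.09, edgeR adjusted p = 0.00448) and Nodal 1.18-fold (0.24, SE 0.08, edgeR adjusted p = 0.0475). Tdgf1 was at 0.01 (SE 0.06) and Lefty2 at 0.14 (SE 0.09), both below 0 with all libraries, and Smad7 was at −0.14 (SE 0.09).

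**Figure D3:**
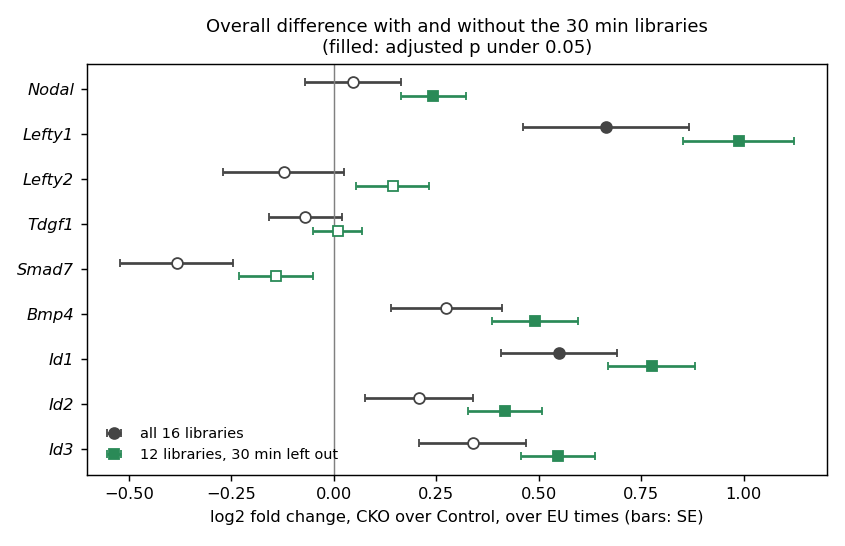
Log2 fold change of CKO over Control across EU times (horizontal axis, bars are SE) for each gene, with circles for the fit to all 16 libraries and squares for the fit to the 12 libraries outside 30 min; filled symbols had an edgeR adjusted p under 0.05. The filled symbols number 2 with all libraries and 6 without the 30 min libraries.

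The genotype difference varied with EU time for all 9 members when the 30 min libraries were included (F-test with 3 degrees of freedom, edgeR adjusted p from 2.94e-07 for Id1 to 0.019 for Lefty1), against 22.7% of all identifiers and 50.1% of those in the members' range of abundance. Without them only Id1 (edgeR adjusted p = 0.00179) and Smad7 (edgeR adjusted p = 0.00806) were called, 2 of 9 against 5.58% of all identifiers. Id2, Id3 and Bmp4 then had an edgeR adjusted p of 0.0534, 0.0583 and 0.0667. With all libraries, the call of Tdgf1 was lost without any of 12 single libraries and that of Lefty1 without either Control 30 min library or the first CKO 30 min library, with an edgeR adjusted p of up to 0.345 and 0.125.

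From 10 to 60 min of EU, part of the members gained share in the captured RNA, Smad7 most of all. In Control, Smad7 rose 2.41-fold (log2 fold change 1.27, SE 0.10, edgeR adjusted p = 1.33e-09), Id1 1.98-fold (0.98, SE 0.10, edgeR adjusted p = 1.5e-07) and Nodal 1.69-fold (0.76, SE 0.13, edgeR adjusted p = 0.000135). Id3 rose 1.57-fold and Id2 1.47-fold, and Lefty1, Lefty2, Tdgf1 and Bmp4 were not called. In CKO, Smad7 rose 3.41-fold (1.77, SE 0.10, edgeR adjusted p = 4.75e-12), Nodal 1.88-fold (0.91, SE 0.13, edgeR adjusted p = 6.72e-06) and Id3 1.36-fold (0.45, SE 0.12, edgeR adjusted p = 0.0071), while Id1 was at 0.21 (SE 0.10, edgeR adjusted p = 0.178) and Id2 at −0.06 (SE 0.12). Thus 5 of 9 members rose in Control, where 10.1% of all identifiers were called (6.88% higher, 3.21% lower), and 3 of 9 in CKO, where 15.2% were (8.96% higher, 6.24% lower). In the members' range of abundance 26.9% were called in Control (20.5% higher) and 40.2% in CKO (25.3% higher). Without the 30 min libraries the counts were 5 of 9 (19.3% of all identifiers) and 4 of 9 (26.7%), the added member being Bmp4 in CKO (0.38, edgeR adjusted p = 0.0357). Bmp4 was called in CKO without the second CKO 10 min library or either CKO 30 min library as well (edgeR adjusted p = 0.0291 to 0.0381). Id3 in CKO lost its call without the first library of the CKO 10 min group (edgeR adjusted p = 0.139) or of the CKO 60 min group (edgeR adjusted p = 0.145).

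The difference between these changes was tested for each gene in a contrast chosen after the values were seen. For Id1 the change from 10 to 60 min was smaller in CKO than in Control by a log2 difference of −0.77 (SE 0.14, edgeR adjusted p = 0.00221), and this was the 1 of 9 members called, against 2.51% of all identifiers (1.12% lower) and 7.11% of those in the members' range of abundance (3.17% lower). Id2 was at −0.62 (SE 0.17, edgeR adjusted p = 0.0532) and Smad7 at 0.50 (SE 0.14, edgeR adjusted p = 0.0519). Without the 30 min libraries all 3 were called (5.7% of all identifiers), Id1 at −0.73 (edgeR adjusted p = 0.00276), Id2 at −0.58 (edgeR adjusted p = 0.0282) and Smad7 at 0.53 (edgeR adjusted p = 0.0176). With all libraries, Id2 and Smad7 were also called without either CKO 30 min library or the first CKO 10 min library, Id2 without the second CKO 60 min library and Smad7 without the first, with an edgeR adjusted p of 0.00201 to 0.0496.

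Levels were also set against ERCC RNA, a synthetic spike-in added after capture at 0.01 µl per sample. Counts per 1000 ERCC counts therefore carry differences in cell number, recovery and capture as well as in labelled RNA. On this scale all 9 members were above Control in CKO at 10 and 20 min without overlap of libraries, Smad7 included. All mouse counts per ERCC count lay apart in the same way. At 10 min they were 28.6 and 34.3 in CKO against 11.6 and 12.3 in Control. At 20 min they were 60.3 and 59.3 in CKO against 45.5 and 45.2 in Control. The test with ERCC scaling called 2 of 9 members at 20 min, both higher, and 146 of all 27488 identifiers. At 10 min Id1 was at 0.818 ± 0.0131 in Control and 5.20 ± 0.830 in CKO (SD, n = 2 each), a ratio of 6.35. The ratio was 5.28 for Lefty1, 4.51 for Id3 and 4.37 for Id2, and lowest for Smad7, which was at 1.63 ± 0.0098 in Control and 2.84 ± 0.0745 in CKO (SD, n = 2 each), a ratio of 1.74. All 9 were called higher at 10 min with ERCC scaling (edgeR adjusted p from 4.53e-10 for Id1 to 0.00337 for Smad7), so that the direction for Smad7 depends on the scale. With this scaling 11834 of all 27488 identifiers were called higher at 10 min, and the median log2 fold change was 1.14 over all identifiers and 1.57 over the members.

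Per spike-in, all 9 members were higher at 60 than at 10 min of EU in Control and in CKO. Over that time the Control level of Smad7 grew 25.2-fold and that of Id1 20.6-fold, and in CKO they grew 14.8-fold and 4.96-fold. All mouse counts per ERCC count went from 11.6 and 12.3 in the Control libraries at 10 min to 132.5 and 131 at 60 min. In CKO they went from 28.6 and 34.3 to 127.6 and 154.6. The slope for Id3 was 0.287 ± 0.0381 counts per 1000 ERCC counts per min in Control and 0.419 ± 0.0432 in CKO (SE of the slope, n = 8 libraries each), a ratio of 1.46. The ratio of slopes was 1.89 for Lefty1, 1.37 for Bmp4, 1.32 for Id1 and 1.28 for Nodal. It was 0.980 for Id2, 0.971 for Smad7, 0.967 for Lefty2 and 0.947 for Tdgf1, next to 0.921 for all mouse counts together. The 30 min libraries carry no weight in the values of these slopes, since 30 min is the mean of the EU times, but they enter the SE. Without them the SE of the Id3 slope was 0.0125 in Control and 0.0137 in CKO (n = 6 libraries each). The slopes are a description and were not tested between genotypes. At 60 min 0 of 9 were called by edgeR with ERCC scaling (lowest adjusted p = 0.335, for Lefty1), and 4 had an unadjusted p under 0.05.

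**Figure D4:**
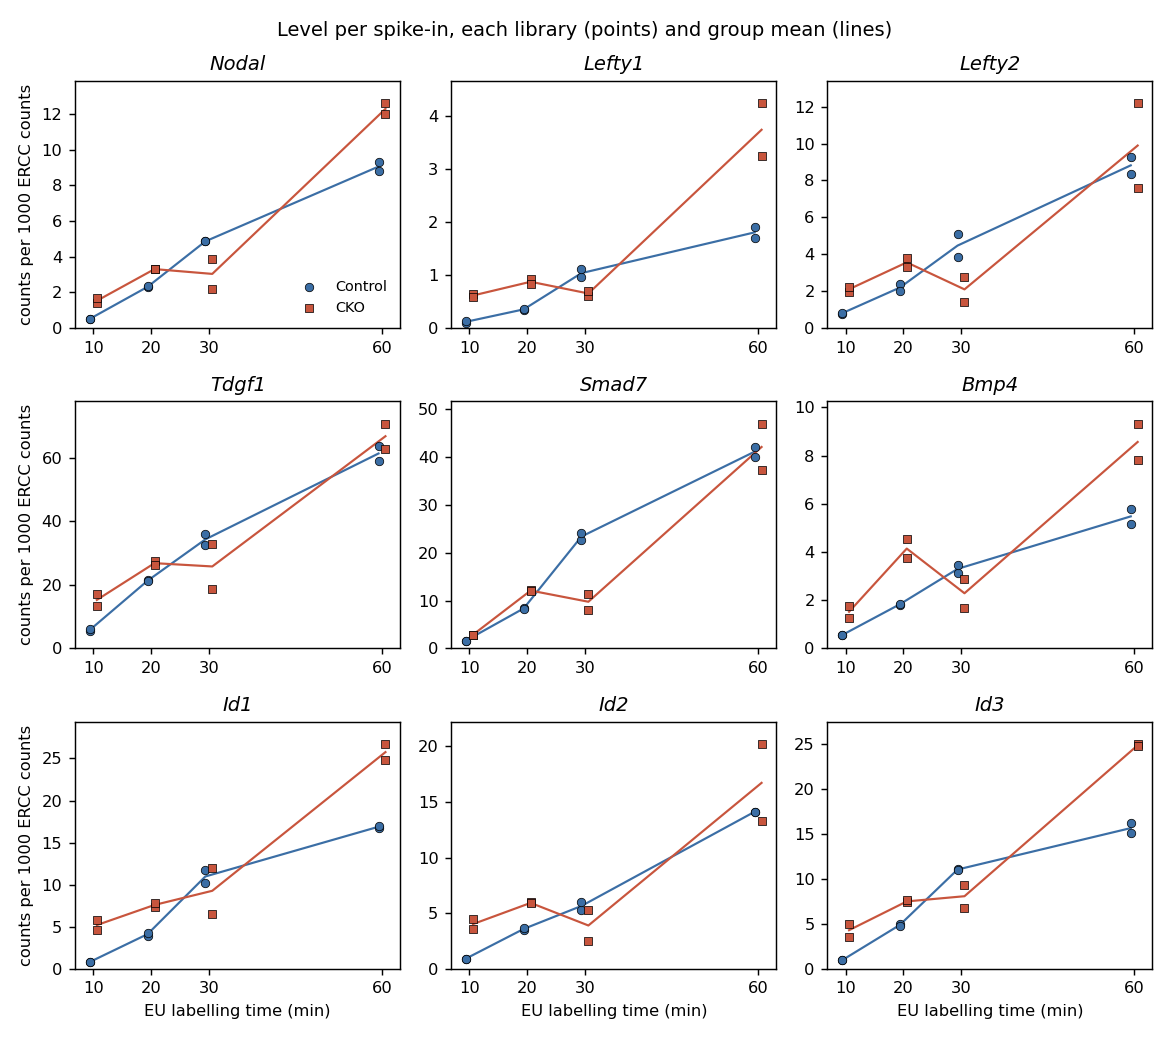
Counts per 1000 ERCC spike-in counts (vertical axes, from 0) of the 9 genes against EU labelling time in minutes, with 1 point per library, circles for Control and squares for CKO, and lines through the means of the 2 libraries. Control means grow at each step of EU time, and CKO means of 7 of the 9 genes are lower at 30 than at 20 min. The CKO libraries held 81.6 and 47.4 mouse counts per ERCC count at 30 min, against 60.3 and 59.3 at 20 min. For Nodal and Tdgf1 the first CKO 30 min library lies above both CKO libraries of 20 min. The share of all identifiers with a lower CKO mean at 30 min was not counted. CKO is above Control for all 9 genes at 10 and 20 min, as it is for all mouse counts per ERCC count. At 60 min CKO stays above for Nodal, Lefty1, Bmp4, Id1 and Id3.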

How the data were processed

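Captured EU-labelled RNA was measured in 16 libraries, 2 for each of 2 genotypes and 4 EU times. The authors deposited raw counts per gene identifier with 92 ERCC species. The tools named in the submitters' processing notes are HTSeq, HISAT2 2.1.0, Trimmomatic 0.38 and CASAVA, with build mm10. Annotation release and strand setting are not given in the labels or files, which makes counts of overlapping genes uncertain. Symbols came from the list that defines the 9 members. Members and lists were chosen with earlier results of these data known. The lists of further pathway genes, cell type markers and genes of like pattern could not be applied without symbols.

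Tests used edgeR 4.0.16 in R 4.3.3 (quasi-likelihood, robust; TMM on mouse counts, Benjamini-Hochberg, threshold 0.05) after edgeR's filter by group, which left 27488 identifiers with 99.89% of mouse counts. The overall effect came from EU time plus genotype, the others from 8 group means. SE values derive from the F statistic. Counts were simulated for 19450 identifiers in the 12 libraries outside 30 min, with no effect of EU time. With 200 of the more abundant genes changed 2-fold alike at each EU time, 95% were recovered over those EU times. At 10 min 65.5% were recovered. The fit to all 16 libraries was not simulated. Alternatives were DESeq2 1.42.0, other scalings and filters, a replicate block, and fits without the 30 min libraries or each library in turn.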

Additional observations from a re-analysis of the deposited data

Results flagged for a closer look

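The difference between genotypes varied across EU times for every member (edgeR adjusted p, Benjamini-Hochberg, F-test with 3 degrees of freedom): 2.94e-07 for Id1, 4.36e-07 for Smad7, 2.55e-05 for Id3, 4.34e-05 for Id2, 0.000251 for Lefty2, 0.000254 for Bmp4, 0.000638 for Nodal, 0.0119 for Tdgf1 and 0.019 for Lefty1. Of all identifiers 22.7% were called, and of those in the members' range of abundance 50.1%. The call of Tdgf1 was lost in 12 of 16 fits that left out 1 library and that of Lefty1 in 3. Of the 9, Id1 and Smad7 were also called without the 30 min libraries. For Id1 the change from 10 to 60 min of EU differed between the genotypes by −0.77 on the log2 scale.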

How the results depend on the processing

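Depth limited Lefty1 most, with as few as 38 counts in a library, and each group had 2 libraries. Members called over all EU times numbered 2, and 4 with library totals, 5 with DESeq2, 4 without a filter and 6 without the 30 min libraries. Among these Smad7 was called lower with library totals (edgeR adjusted p = 0.043), with DESeq2 (DESeq2 adjusted p = 0.032) and without a filter (edgeR adjusted p = 0.0079). All other calls in these fits were higher. Of all 27488 identifiers 3152 were called, 3958 with library totals and 4338 with DESeq2. Without a filter 4048 of 42989 were called, and without the 30 min libraries 2545 of 20204. At 10 min ERCC scaling called 9 in place of 5. At 30 min 3 were called with median-of-ratios factors, 2 with library totals, 3 with ERCC scaling and 3 with DESeq2, in place of 7. Over all identifiers the 13339 calls at 30 min became 12745, 12807, 11623 and 10686 in that order. At 60 min 0 were called with ERCC scaling (edgeR), 5 with DESeq2 and 5 without the 30 min libraries, in place of 3. From 10 to 60 min ERCC scaling called 9 in Control and 9 in CKO, in place of 5 and 3. For the difference of these changes, 1 became 2 with median-of-ratios factors, 2 with library totals, 7 with ERCC scaling, 3 with DESeq2, 2 without a filter, 3 with the stricter filter, 3 without the 30 min libraries and 3 with the replicate block. Over all identifiers the 690 calls became 700 with median-of-ratios factors and 752 with library totals. They became 884 of 42989 without a filter and 761 of 21683 with the stricter filter. For genotype by EU time 9 became 2 without the 30 min libraries. The causes were not tested.

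Leaving out a library leaves 1 in its group, so only log2 fold changes of members called with all 16 libraries are given here. Over all EU times Id1 stayed between 0.45 and 0.62 and Lefty1 between 0.57 and 0.82. At 10 min Id1 stayed between 1.26 and 1.36, Id2 between 0.74 and 0.82 and Id3 between 0.68 and 0.94. Lefty1 then ranged from 0.83 to 1.39 and Smad7 from −0.685 to −0.40. At 20 min Bmp4 ranged from 0.64 to 0.90 and Id1 from 0.41 to 0.54. At 60 min Id1 ranged from 0.46 to 0.585, Id3 from 0.46 to 0.70 and Bmp4 from 0.49 to 0.63. Calls lost in such fits are named with each comparison above.

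Signs turned with ERCC scaling for Smad7 (0.0415 over all EU times, 0.80 at 10 min, 0.034 at 60 min, and −0.77 for the difference of changes), Tdgf1 (0.35 over all EU times, 0.33 at 20 min), Lefty2 (0.31 over all EU times), Bmp4 (3.31 from 10 to 60 min in Control) and Id2 (2.06 from 10 to 60 min in CKO). Without the 30 min libraries Tdgf1 turned to 0.0095 and Lefty2 to 0.14 over all EU times. Id1 at 30 min turned to 0.0834 with median-of-ratios factors, 0.11 with library totals and 0.0823 with DESeq2. Tdgf1 turned at 10 min to −0.01 with library totals. From 10 to 60 min Tdgf1 turned in Control to −0.012 with median-of-ratios factors, −0.069 with library totals, −0.012 with DESeq2, −0.014 with the stricter filter and −0.0388 without the 30 min libraries, and in CKO to −0.0243 with median-of-ratios factors, −0.0249 with library totals, −0.0247 with DESeq2 and −0.0058 with the stricter filter. Single libraries left out turned uncalled values: Nodal over all EU times (−0.0056 to 0.11); Tdgf1 at 10 min (−0.0376 to 0.12), at 60 min (−0.0086 to 0.0815) and from 10 to 60 min (−0.0177 to 0.0828 in Control, −0.0379 to 0.11 in CKO); Bmp4 at 10 min (−0.0351 to 0.22) and in Control from 10 to 60 min (−0.13 to 0.0135); Lefty2 at 60 min (−0.18 to 0.27) and in CKO from 10 to 60 min (−0.13 to 0.32); Id2 at 60 min (−0.0627 to 0.32) and in CKO from 10 to 60 min (−0.26 to 0.12).

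No effect shared by libraries of the same label replicate number was seen: over 28 pairs of groups, the replicate differences correlated with r between −0.0595 and 0.031. These correlations cannot show whether libraries shared a plate or a culture. With the replicate block, the count for the difference of changes from 10 to 60 min was 3 in place of 1 and Lefty1 was called at 60 min (edgeR adjusted p = 0.0279).

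Over all identifiers, edgeR calls at 10 min numbered 3246, 11962 with ERCC scaling and 4969 with DESeq2; at 20 min 264, 146, 851 and 403 with the replicate block; at 60 min 723, 12 and 1941. From 10 to 60 min ERCC scaling called 18274 in place of 2774 in Control and 14556 in place of 4176 in CKO, and DESeq2 4407 in Control. For the difference of changes the 690 calls became 8014 with ERCC scaling, 1971 with DESeq2, 1070 with the block and 1151 without the 30 min libraries, and for genotype by EU time 6238 became 10546 with ERCC scaling and 1127 without the 30 min libraries. Higher calls at 30 min were 8076 of 13339, 9419 of 12745 with median-of-ratios factors and 9667 of 12807 with library totals; at 10 min 1772 of 3246, 1463 of 3364 with library totals and 11834 of 11962 with ERCC scaling; at 60 min 492 of 723, 387 of 706 and 370 of 738 with median-of-ratios factors and library totals.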
